A study of Homo sapiens with 26 samples.

Results

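The genes described here encode nuclear speckle proteins, SR proteins and the kinases and splice-site factors that work with them. They were chosen by symbol from a list of 47, of which 46 were listed and tested in each table, among 12239 genes listed in any table. U2AF1 was not used here. They were read out in 786-O, an established human clear cell renal carcinoma line, in which 5 genes were knocked down with 2 siRNAs each: SART1 (siRNA4 and siRNA6), DDX39A (siRNA1 and siRNA4), SARNP (siRNA3 and siRNA9), FIBP (siRNA6 and siRNA7) and TMEM259 (siRNA5 and siRNA6; its titles use the older symbol C19orf6). Each siRNA had 2 libraries of poly(A) RNA, and a non-targeting siRNA gave 2 control libraries in each of 3 tables: 1 for SART1, 1 shared by DDX39A and SARNP, and 1 shared by FIBP and TMEM259. The 26 libraries all came from this 1 line, which was transfected by lipid reagent, split at 24 h and harvested at 48 h after transfection. Whether paired libraries stem from separate transfections is not stated in the labels, so the p-values measure only the spread between these libraries, which may be technical.

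SR proteins carry an RNA-binding domain and a tail rich in arginine and serine (the RS domain). Kinases of the CLK and SRPK families phosphorylate that tail, and the phosphorylated proteins move between speckles, which store splicing factors, and sites of transcription, where they help recruit the splicing machinery. SART1 is a component of the tri-snRNP of the spliceosome, and DDX39A and SARNP belong to mRNA export complexes. Many SR protein genes have exons whose inclusion leads to decay of their own mRNA; the gene-level values used here do not separate such transcripts.

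Each knocked-down mRNA was lower with both of its siRNAs. It fell to 33.3% and 26.8% of the control mean for SART1, 14.0% and 16.5% for DDX39A, 13.5% and 8.48% for SARNP, 11.0% and 17.1% for FIBP, and 30.3% and 48.3% for TMEM259, with the lower-numbered siRNA first. Libraries held 21710821 to 26128173 gene reads for SART1 and its controls, 9959064 to 18086176 for DDX39A, SARNP and theirs, and 8966609 to 17018483 for FIBP, TMEM259 and theirs. All 6 renal line markers looked up (PAX8, PAX2, EPAS1, CDH6, VIM and KRT18) were listed in every table. Of 7 markers of other cell types, CD68 alone was listed. In the FIBP and TMEM259 table CD68 (142 to 259 normalized counts) lay above PAX2 (93.6 to 134). In the other tables the ranges of CD68 and PAX2 overlapped. Values below are the authors' normalized counts, and changes are log2(value + 1) differences of a knockdown against the controls of its own table; a gene was called at an adjusted p below 0.05, with 2 libraries per group and standard errors (SE) from the fit. In cultures read in bulk, a change in the RNA of every cell and a change in the mix of cells cannot be told apart.

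**Figure D1:**
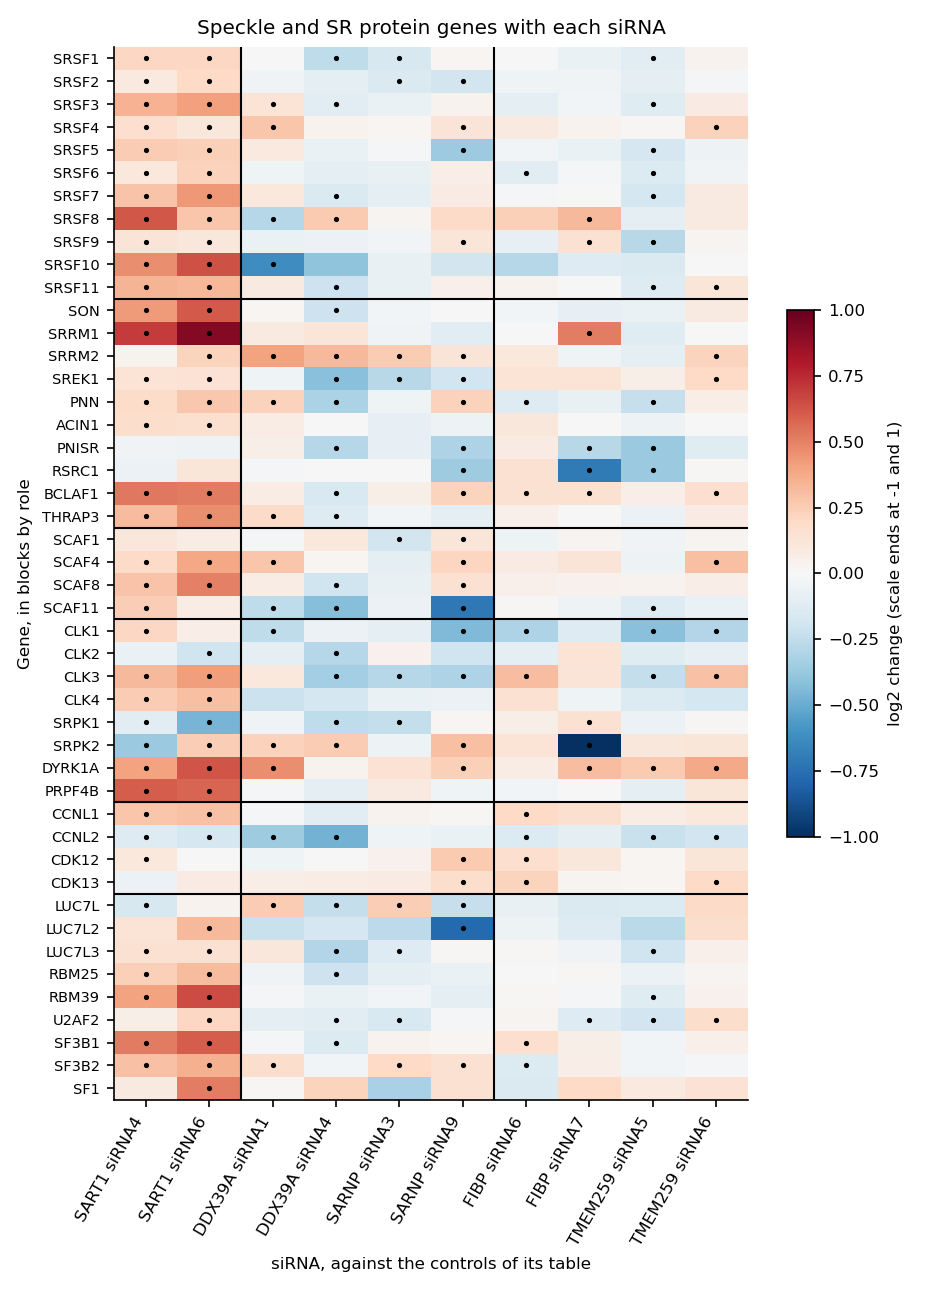
Rows are the 46 measured genes in blocks by role (SR proteins, speckle scaffolds and SR-related proteins, SR-like proteins bound to the polymerase tail, kinases, cyclins and polymerase kinases, splice-site factors) and columns are the 10 siRNAs; colour is the log2 change against the controls of the same table and a dot marks an adjusted p below 0.05. The SART1 columns hold the most dots on red, with 33 and 35 genes called higher, where 29.5% and 32.5% of all genes were. The libraries of the SART1 table also held the most gene reads. The siRNAs within a block between vertical lines share their controls.

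Most of these genes were modestly higher after SART1 knockdown. With siRNA4, 33 of 46 were called higher, where 29.5% of all genes tested were, and 4 were called lower, where 28.2% were. For siRNA6 the counts were 35 higher, against 32.5% of all genes, and 3 lower, against 30.5%. The median change of the 46 was 0.20 with siRNA4 and 0.26 with siRNA6, beside -0.01 and 0.00 over all genes tested. No member passed a 2-fold change with either siRNA. Both siRNAs were compared with the same 2 control libraries. Quantile normalization moved the siRNA6 median to 0.13 and its count of higher genes to 25, and it moved the siRNA4 median to 0.16 and its count to 25. The count of lower genes with siRNA4 was 2 by DESeq2, 1 without control library 1 and 2 without siRNA4 library 1.

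All 11 SR proteins, SRSF1 to SRSF11, were called higher with siRNA4 (0.10 to 0.62) and with siRNA6 (0.12 to 0.64), but under quantile normalization 7 and 6 of them were called and the values of SRSF6 with siRNA4 and of SRSF4 and SRSF9 with siRNA6 lay just under 0. Of all genes tested, 29.5% were called higher with siRNA4 and 32.5% with siRNA6. Summed over the 11 genes, the normalized counts were 117% of control with siRNA4 and 121% with siRNA6. SRSF3, an SR protein that also serves as an adaptor for mRNA export, had 15163 and 15638 normalized counts with siRNA4 and 16031 and 16103 with siRNA6, against 12107 and 12131 in controls. Every knockdown library was above both controls, and the changes were 0.35 ± 0.03 (SE, limma adjusted p = 1.3e-09) with siRNA4 and 0.41 ± 0.03 (SE, limma adjusted p = 7.0e-11) with siRNA6. SRSF11, which binds near splice sites and takes part in the choice of small exons, had 5193 and 5266 with siRNA4 and 5176 and 5250.2 with siRNA6, against 4180.4 and 4103 in controls. Its changes were 0.34 ± 0.04 and 0.33 ± 0.04 (limma adjusted p = 2.0e-08 and 1.9e-08), again with no overlap between groups. SRSF10, which represses splicing when it loses its phosphate groups, was the SR protein with the fewest reads, at 112 and 125 with siRNA4 and 139 and 128 with siRNA6, against 71.97 and 101 in controls. The groups did not overlap, yet the 2 controls lay far apart. Its change with siRNA4 was 0.46 ± 0.16 (SE, limma adjusted p = 0.014); the call was lost by DESeq2 (adjusted p = 0.112), without control library 1 (0.22, adjusted p = 0.306) and without siRNA4 library 2 (adjusted p = 0.1). With siRNA6 the change was 0.64 ± 0.16 (SE, limma adjusted p = 0.0011), and 0.39 (adjusted p = 0.0517) without control library 1. SRSF8, a near copy of SRSF2, had 700.4 and 702 with siRNA4 and 552 and 554 with siRNA6, against 438 and 474 in controls. All 4 knockdown libraries were above both controls, and the siRNA6 minus siRNA4 difference was -0.34 ± 0.07 (SE, limma adjusted p = 2.8e-04).

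Among the 10 scaffolds and SR-related proteins, 7 were called higher with siRNA4 and 8 with siRNA6, and none lower. Of all genes tested, 29.5% were higher and 28.2% lower with siRNA4, and 32.5% and 30.5% with siRNA6. Under quantile normalization 4 and 5 of the 10 were higher. The calls of ACIN1, an SR-related protein, and SREK1, a splicing regulator, were lost with both siRNAs under that scaling. SRRM1, a coactivator that bridges SR proteins bound to exons, had the largest log2 change among the 46 with either siRNA. It stood at 2029.6 and 2075 with siRNA4 and 2449 and 2338 with siRNA6, against 1312 and 1222 in controls. Its level was 162% and 189% of the control mean, and the siRNA6 value was above the siRNA4 value (0.22 ± 0.05 SE, limma adjusted p = 6.1e-04). SON, a large scaffold that holds speckles together, had 12505 and 12329.5 with siRNA4 and 14231 and 14135 with siRNA6, against 9432 and 9096 in controls. The change was 0.42 ± 0.03 (SE, limma adjusted p = 7.9e-11) with siRNA4 and 0.61 ± 0.03 (SE, limma adjusted p = 1.2e-13) with siRNA6. SRRM2, which forms the speckle core with SON, did not pass with siRNA4 (0.03 ± 0.03) and was higher with siRNA6 (0.22 ± 0.03 SE, limma adjusted p = 8.0e-06), a call lost under quantile normalization. BCLAF1, an SR-like protein of mRNA particles, had 9262 and 9271 with siRNA4 and 9185 and 9227 with siRNA6, against 6517 and 6359.9 in controls. Both siRNAs gave nearly the same change, 0.53 and 0.52. THRAP3, its close relative, was higher by 0.32 and 0.46, and PNN, a speckle and desmosome protein, by 0.18 and 0.27, the first of which did not pass under quantile normalization. PNISR and RSRC1, both SR-related, did not pass with either siRNA; their values lay between -0.06 and 0.12.

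**Figure D2:**
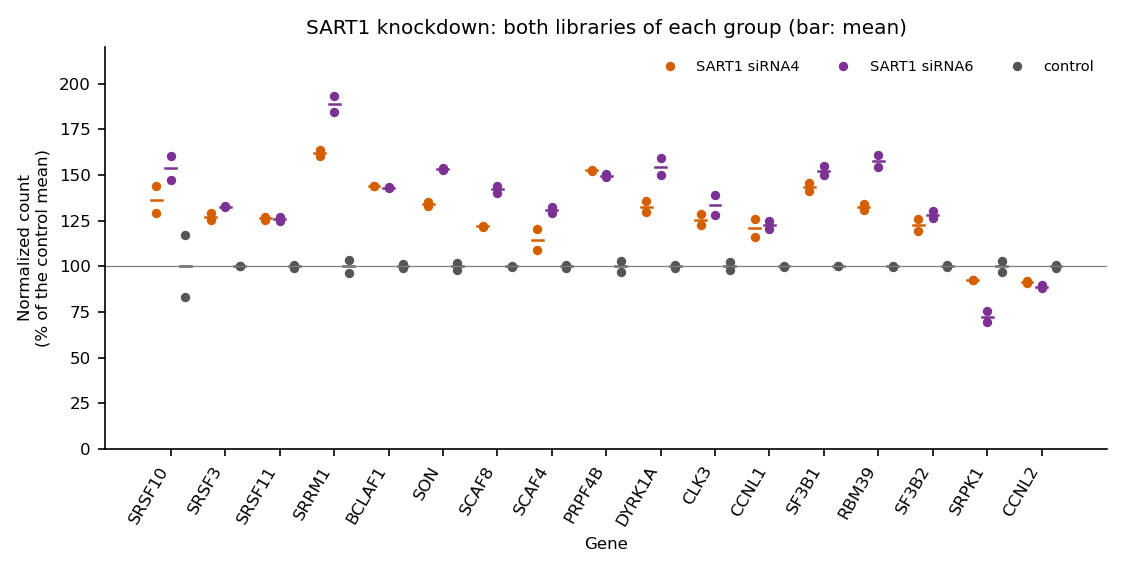
Both libraries of each SART1 siRNA and of the controls for 17 genes, as a percentage of the control mean (points, libraries; short bars, means of 2). The 17 genes were chosen because both siRNAs called them and every SART1 library lay beyond both controls. That choice fixed the lack of overlap, above the controls for 15 genes and below for SRPK1 and CCNL2. The 2 SRSF10 controls lie far apart.

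The SR-like proteins that bind the tail of RNA polymerase II were higher in part. SCAF8 had 1326 and 1319 with siRNA4 and 1558 and 1521 with siRNA6, against 1087 and 1080.3 in controls, a change of 0.29 and 0.51. SCAF4, which with SCAF8 restrains early ending of transcripts, had 1789 and 1613 with siRNA4 and 1961 and 1916 with siRNA6, against 1473 and 1495 in controls. All 4 knockdown libraries were above both controls, and it changed by 0.19 ± 0.05 (SE, limma adjusted p = 0.0018) with siRNA4 and 0.39 ± 0.05 (SE, limma adjusted p = 4.1e-07) with siRNA6; the siRNA4 value was 0.12 (adjusted p = 0.0566) without its library 1. SCAF11, an SR-related factor, was higher with siRNA4 (0.24) and did not pass with siRNA6 (0.07), and the siRNAs differed (-0.17 ± 0.04 SE, limma adjusted p = 0.0032). That difference was lost without siRNA4 library 2 (adjusted p = 0.0517) or siRNA6 library 2 (0.0607).

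Of the 8 kinases, 5 were higher and 2 lower with each siRNA. Among all genes tested, 29.5% were higher and 28.2% lower with siRNA4, and 32.5% and 30.5% with siRNA6. The count of lower kinases was thus near the share of all genes. By DESeq2, 1 kinase was lower with each siRNA, and under quantile normalization 1 was lower with siRNA6. PRPF4B, a kinase of the tri-snRNP, had 3763 and 3784 with siRNA4 and 3682 and 3726 with siRNA6, against 2549.6 and 2401 in controls, changes of 0.61 ± 0.04 (SE, limma adjusted p = 7.3e-12) and 0.58 ± 0.04 (SE, limma adjusted p = 1.4e-11). DYRK1A, a kinase found in speckles, had 661 and 691 with siRNA4 and 812 and 766 with siRNA6, against 507 and 514 in controls, changes of 0.40 and 0.63. For CLK3, a nuclear kinase of SR proteins, the libraries held 1291 and 1355 with siRNA4 and 1465 and 1349 with siRNA6, against 1032 and 1075 in controls, changes of 0.33 and 0.42. For PRPF4B, DYRK1A and CLK3, every knockdown library was above both controls. CLK4, of the same family as CLK3, was higher by 0.26 and 0.30; its siRNA4 call was lost by DESeq2 (adjusted p = 0.0613) and without control library 2 (0.0877). SRPK1, a mainly cytoplasmic SR protein kinase, had 2559 and 2555 with siRNA4 and 2082 and 1922 with siRNA6, against 2848 and 2681 in controls. It fell with both, with log2 changes of -0.11 ± 0.05 (SE, limma adjusted p = 0.039) with siRNA4 and -0.47 ± 0.05 (SE, limma adjusted p = 5.1e-09) with siRNA6, and the siRNA6 minus siRNA4 difference was -0.35 ± 0.05 (SE, limma adjusted p = 1.2e-06). The siRNA4 call was lost by DESeq2 (adjusted p = 0.106), without control library 1 (-0.07, adjusted p = 0.332) and without either siRNA4 library (adjusted p = 0.0712 and 0.0805). Its relative SRPK2 went in opposite directions: it had 2082 and 1981 with siRNA4 and 3082 and 3154 with siRNA6, against 2641 and 2602 in controls. Neither set of knockdown libraries overlapped the controls, and the siRNA6 minus siRNA4 difference was 0.62 ± 0.04 (SE, limma adjusted p = 2.7e-11).

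CCNL1, a cyclin that partners a splicing-linked kinase, had 1385 and 1504 with siRNA4 and 1434 and 1492 with siRNA6, against 1198 and 1189 in controls. It was higher in all 4 knockdown libraries, by 0.27 and 0.29. Its paralog CCNL2 had 2563 and 2583 with siRNA4 and 2481 and 2519 with siRNA6, against 2835 and 2792 in controls. CCNL2 was lower in all 4 knockdown libraries, with changes of -0.13 ± 0.04 (SE, limma adjusted p = 0.0078) with siRNA4 and -0.17 ± 0.04 (SE, limma adjusted p = 6.8e-04) with siRNA6; the siRNA4 call was lost without control library 1 (-0.12, adjusted p = 0.0674). Of the 9 splice-site factors, 5 were higher and 1 lower with siRNA4, and 8 were higher with siRNA6. The shares of all genes were 29.5% higher and 28.2% lower with siRNA4, and 32.5% higher with siRNA6. SF3B1, the U2 snRNP subunit that holds the branch point, had 14539 and 14953 with siRNA4 and 15416 and 15902 with siRNA6, against 10284 and 10281 in controls, changes of 0.52 ± 0.03 and 0.61 ± 0.03. RBM39, a factor related to U2AF, had 7887 and 8097 and 9326 and 9701 with these siRNAs, against 6017 and 6055 in controls. The groups did not overlap for either gene; RBM39 changed by 0.40 ± 0.03 (SE, limma adjusted p = 4.7e-10) with siRNA4 and 0.66 ± 0.03 (SE, limma adjusted p = 1.1e-13) with siRNA6. SF3B2, another U2 snRNP subunit, had 12538 and 11863 with siRNA4 and 12964 and 12579.8 with siRNA6, against 9899.8 and 10035 in controls, and was higher by 0.29 and 0.36. LUC7L, a U1 snRNP partner, was lower with siRNA4 (-0.16) and did not pass with siRNA6 (0.03). The siRNA4 call was lost by DESeq2 (adjusted p = 0.095), without control library 1 (0.0538) or 2 (0.0814), and without siRNA4 library 1 (0.0602).

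Compared directly, without the controls, the siRNAs differed in 23 members, 18 of them higher with siRNA6, where 19.4% of all genes were, and 5 lower, where 19.1% were; the count was 15 by DESeq2 and 14 without siRNA6 library 2. Outside the 46, 57 of a list of 60 other genes were measured. They are called other splicing genes here, but some, such as SPEN and HIPK2, are not known mainly for splicing. Of the 57, 30 were higher and 8 lower with siRNA4, and 34 were higher and 5 lower with siRNA6. Over all genes tested, 29.5% were higher and 28.2% lower with siRNA4, and 32.5% and 30.5% with siRNA6. The DEAD-box protein DDX46, which works with the U2 snRNP, changed by 0.44 and 0.46 with siRNA4 and siRNA6, RSRC2 by 0.41 and 0.47, CIR1 by 0.54 and 0.41 and SAP18, a partner of ACIN1, by 0.40 and 0.42.

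Runs of arginine and serine can be read from the coding sequences. The 60-base stretches below come from 4 of the genes that rose with SART1 knockdown and show such runs, with arginine codons in capitals (GENCODE 29, GRCh38, coding strand, 5′ to 3′). They were searched within single exons, so a denser run across an exon boundary is not shown.
SRSF3, chr6:36601733-36601792, plus strand: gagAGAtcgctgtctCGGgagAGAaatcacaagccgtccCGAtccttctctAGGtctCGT
SRSF11, chr1:70244685-70244744, plus strand: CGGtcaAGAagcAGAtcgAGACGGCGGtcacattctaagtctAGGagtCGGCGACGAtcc
SRRM1, chr1:24652525-24652584, plus strand: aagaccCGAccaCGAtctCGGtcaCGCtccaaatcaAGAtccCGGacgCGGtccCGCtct
PRPF4B, chr6:4037479-4037538, plus strand: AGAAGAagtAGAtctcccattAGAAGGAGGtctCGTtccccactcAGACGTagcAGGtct
The stretches lie in exons 5, 9, 7 and 3 of the transcripts used. Not all are tails: the SRRM1 stretch covers codons 273 to 292 of 904, and that of PRPF4B codons 441 to 460 of 1007. Counting arginine codons next to serine codons, they hold 7, 11, 11 and 9 such pairs in the order shown. Over whole coding sequences, the median was 5.42 pairs per 100 codons in the 46 members and 0.759 in all tested genes with a coding sequence, 93.1% of those in the SART1 table. SRSF2 had the most among members, at 23.5.

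As a description, members were grouped by this share, with limits chosen after the values were seen. With SART1 siRNA4 the median change was 0.23 in the 24 members with 5 or more pairs per 100 codons, 0.18 in the 15 with 2 to under 5 and 0.24 in the 7 with under 1. With siRNA6 it was 0.26, 0.16 and 0.36 in the same groups. The last holds SF3B1, SF3B2, RBM25, SF1, DYRK1A, SRPK1 and SRPK2, with values from -0.47 to 0.63 with siRNA6. In the 26 tested genes outside the list with 5 or more, the median was 0.13 with siRNA4 and 0.08 with siRNA6. By each siRNA, 13 of them were called higher and 6 lower. Over all genes tested, 29.5% were higher and 28.2% lower with SART1 siRNA4, and 32.5% and 30.5% with SART1 siRNA6. In the same 26 genes the median was -0.11 with TMEM259 siRNA5, with 2 called higher and 7 lower, and -0.02 with TMEM259 siRNA6, with 5 called higher and 2 lower. Over all genes, 12.0% were lower with TMEM259 siRNA5, and 9.36% higher and 10.0% lower with siRNA6. In the 24 members with 5 or more, the medians were -0.12 with TMEM259 siRNA5 and 0.08 with siRNA6. With DDX39A siRNA4 their median was also -0.12, with 2 called higher and 11 lower. In 25 genes outside the list it was -0.07, with 4 higher and 10 lower, where 25.3% and 23.7% of all genes were. With DDX39A siRNA1 and the SARNP and FIBP siRNAs, the medians of these members lay between -0.05 and 0.02.

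**Figure D3:**
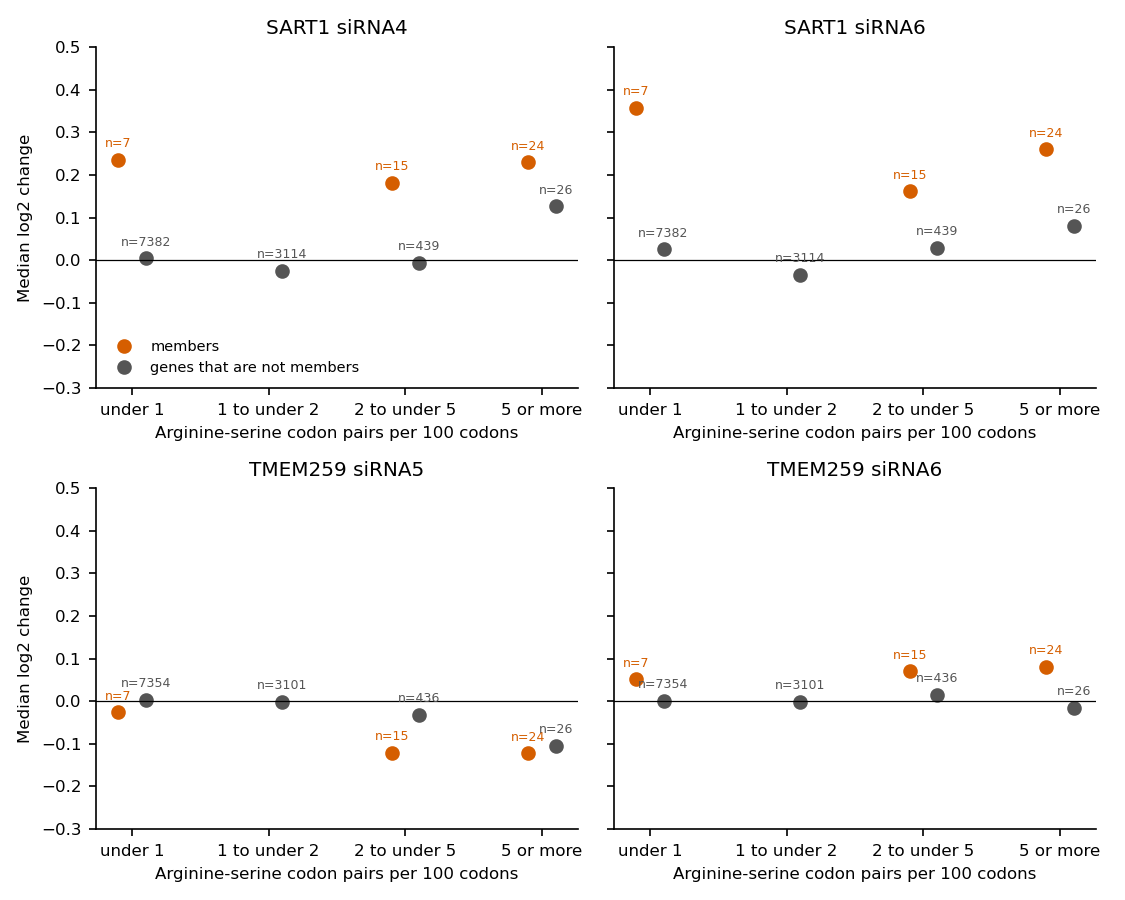
Median log2 change (vertical axis) with both SART1 siRNAs (top) and both TMEM259 siRNAs (bottom), by arginine-serine codon pairs per 100 codons (horizontal axis), for members (orange) and other tested genes (grey), with the number of genes beside each point. The medians of members lie above 0 in the SART1 panels in each group, the highest at 0.36; with 5 or more pairs they lie at -0.12 with TMEM259 siRNA5 and 0.08 with siRNA6. No member fell between 1 and 2.

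With DDX39A siRNA1, 10 members were called higher, where 17.1% of all genes were, and 5 lower, where 16.1% were. With siRNA4, 3 were higher, where 25.3% of all genes were, and 21 lower, where 23.7% were. The medians were 0.00 with siRNA1 and -0.11 with siRNA4. Directly compared, 2 members were higher and 23 lower with siRNA4 than with siRNA1, where 25.6% and 25.0% of all genes were. The count of lower genes with siRNA1 was 2 by DESeq2, and 3 without control library 2 or siRNA1 library 1.

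SRRM2, the speckle core protein, rose with both DDX39A siRNAs. It had 9542 and 9521 with siRNA1 and 9063 and 9049 with siRNA4, against 7419.7 and 7016 in controls, with no overlap. The changes were 0.40 ± 0.04 (SE, limma adjusted p = 4.7e-10) and 0.33 ± 0.04 (SE, limma adjusted p = 1.4e-08). SRPK2 was higher too, at 1419 and 1528 with siRNA1 and 1471 and 1517 with siRNA4, against 1220.0 and 1288 in controls. Both siRNAs lowered CCNL2, to 1343 and 1358 with siRNA1 and 1318 and 1176 with siRNA4, against 1771 and 1688 in controls. Its changes were -0.36 ± 0.05 (SE, limma adjusted p = 2.4e-06) and -0.47 ± 0.05 (SE, limma adjusted p = 2.9e-09). SCAF11 had 1705 and 1835 with siRNA1 and 1668 and 1476 with siRNA4, against 2125 and 2092 in controls, and fell with changes of -0.25 and -0.43.

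The siRNAs differed in sign for PNN, which had 2225 and 2337 with siRNA1 and 1612 and 1506 with siRNA4, against 1955 and 1927 in controls. The siRNA1 libraries were all above, and the siRNA4 libraries all below, the controls. THRAP3 had 3819.5 and 3857 with siRNA1 and 3192 and 2964 with siRNA4, against 3296 and 3443 in controls, and was likewise called higher (0.19) and lower (-0.13). LUC7L had 676 and 634 with siRNA1 and 483 and 446 with siRNA4, against 524 and 571 in controls, changes of 0.26 and -0.24. These calls were less firm than those of PNN. Without control library 2 or siRNA4 library 2, the siRNA4 call was lost for THRAP3 (adjusted p = 0.169 and 0.267) and for LUC7L (0.111 and 0.0978). The siRNA4 call of LUC7L was also lost by DESeq2 (0.0535), and its siRNA1 call without control library 1 (0.0967) or siRNA1 library 1 (0.0653).

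SRSF3 had 7084 and 7259 with siRNA1 and 5908 and 6219 with siRNA4, against 6432 and 6614 in controls, and was called higher with siRNA1 (0.14) and lower with siRNA4 (-0.11). The siRNA1 call was lost without control library 1 (adjusted p = 0.111) or siRNA1 library 2 (0.0848). Its siRNA4 call was lost by DESeq2 (0.0521), without either control library (0.0589 and 0.212) and without siRNA4 library 1 (0.291). SRSF8 went the other way, with 244 and 228 with siRNA1 and 339.7 and 349.5 with siRNA4, against 281 and 294 in controls, changes of -0.28 and 0.26. DESeq2 called neither (0.126 and 0.1); the siRNA1 call was lost without control library 2 (0.0995) or siRNA1 library 2 (0.104), and the siRNA4 call without control library 1 (0.0956) or siRNA4 library 2 (0.0871). DYRK1A had 615 and 693 with siRNA1 and 471 and 502 with siRNA4, against 458 and 490.2 in controls. It was higher with siRNA1 (0.46 ± 0.08 SE, limma adjusted p = 8.1e-06) and did not pass with siRNA4 (0.04 ± 0.08). SRSF10 was lower with siRNA1 (-0.62 ± 0.20 SE, limma adjusted p = 0.013), at 38.2 and 64.2 against 74.3 and 79.03 in controls, and did not overlap them; the call was lost by DESeq2 (adjusted p = 0.142), without control library 2 (0.0929) and without siRNA1 library 1 (-0.25, adjusted p = 0.402). Of the 57 other splicing genes, 15 were higher and 5 lower with siRNA1, and 6 higher and 20 lower with siRNA4. Over all genes, 17.1% were higher and 16.1% lower with siRNA1, and 25.3% and 23.7% with siRNA4. From this list, DDX46 changed by -0.43 and -0.53 and SPEN, a large repressor protein, by 0.26 and 0.28.

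**Figure D4:**
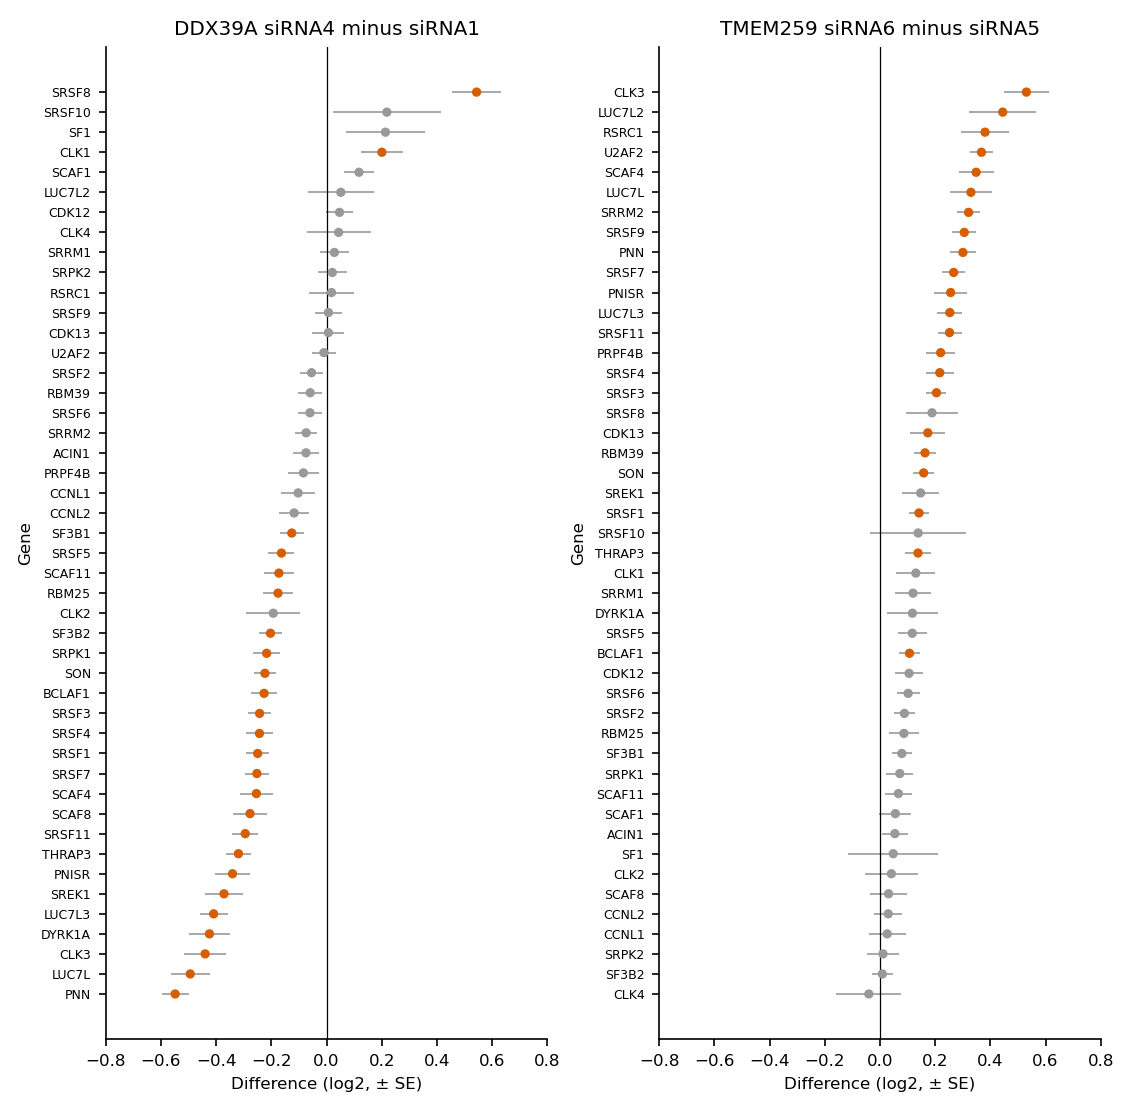
Difference between the siRNAs of a target for each of the 46 genes (points, log2 difference; lines, SE; orange, adjusted p below 0.05), sorted from high to low. In the DDX39A panel 23 genes are called below 0 and 2 above, where 25.0% and 25.6% of all genes were. In the TMEM259 panel 22 are called above 0 and none below, where 16.5% and 15.6% of all genes were.

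With SARNP siRNA3, 3 members were called higher, where 20.3% of all genes were, and 8 lower, where 21.0% were. With siRNA9, 13 were higher, where 29.0% of all genes were, and 10 lower, where 29.4% were. The medians were -0.05 and 0.01. The siRNAs differed directly in 27 members, where 64.1% of all genes did. Without control library 1, the count lower with siRNA3 was 3; without control library 2, the count higher with siRNA9 was 6.

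SRSF2, an SR protein that stays in the nucleus, had 5393 and 5383 with siRNA3 and 5169.9 and 5277 with siRNA9, against 5997 and 5893 in controls. All 4 knockdown libraries were below both controls, with changes of -0.14 ± 0.04 (SE, limma adjusted p = 0.0049) and -0.19 ± 0.04 (SE, limma adjusted p = 1.7e-04); the siRNA3 call was lost without control library 1 (adjusted p = 0.0517) and the siRNA9 call under quantile normalization (-0.09, adjusted p = 0.0512). SRRM2 had 8492 and 8722 with siRNA3 and 7856 and 7903 with siRNA9, against 7419.7 and 7016 in controls. It was higher with both, by 0.25 and 0.13, and the siRNA9 call was lost without control library 2 (0.09, adjusted p = 0.147). SF3B2 had 5821 and 5678 with siRNA3 and 5624 and 5523 with siRNA9, against 5085 and 4929 in controls, and was higher by 0.20 and 0.15. CLK3 had 488 and 477 with siRNA3 and 495 and 454 with siRNA9, against 643 and 536 in controls. It was below both controls in all 4 knockdown libraries, with changes of -0.28 ± 0.08 (SE, limma adjusted p = 0.0029) and -0.31 ± 0.08 (SE, limma adjusted p = 7.7e-04), and both calls were lost without control library 1 (-0.15 and -0.18, adjusted p = 0.189 and 0.0903). SREK1 had 657 and 628 with siRNA3 and 666 and 696 with siRNA9, against 768 and 787 in controls, and was lower, with changes of -0.27 and -0.19; its siRNA9 call was lost by DESeq2 (adjusted p = 0.0711), without control library 2 (0.103) and without siRNA9 library 1 (0.127).

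Several of the larger falls came with siRNA9. SCAF11 had 2008 and 2031 with siRNA3 and 1253 and 1313 with siRNA9, against 2125 and 2092 in controls; the siRNA9 minus siRNA3 difference was -0.65 ± 0.05 (SE, limma adjusted p = 2.8e-13). LUC7L2, a U1 snRNP partner that shares 45.6% of its exon bases with a readthrough gene, had 143 and 171 with siRNA3 and 109 and 109 with siRNA9, against 185 and 191 in controls. Here, too, siRNA9 was lower, and the siRNA9 minus siRNA3 difference was -0.52 ± 0.12 (SE, limma adjusted p = 3.0e-04). CLK1, a nuclear kinase of SR proteins, was lower with siRNA9 (-0.44 ± 0.08 SE, limma adjusted p = 4.3e-06) and did not pass with siRNA3 (-0.10 ± 0.08). SRSF5 fell with siRNA9 (-0.36 ± 0.05 SE, limma adjusted p = 2.7e-08), and its siRNA3 value was -0.01 ± 0.05. LUC7L had 666 and 632 with siRNA3 and 471 and 461 with siRNA9, against 524 and 571 in controls, and was called higher with siRNA3 (0.24) and lower with siRNA9 (-0.23). The siRNA3 call was lost without control library 1 (adjusted p = 0.107) or siRNA3 library 1 (0.0727), and the siRNA9 call without control library 2 (0.103). SCAF1, an SR-like protein that binds the polymerase tail, went the other way, with 1108 and 1126 with siRNA3 and 1407 and 1356 with siRNA9, against 1312 and 1226 in controls, changes of -0.18 and 0.12. Its siRNA3 call was lost without control library 1 (0.112), and its siRNA9 call by DESeq2 (0.112), without control library 2 (0.352) and without siRNA9 library 1 (0.246) or 2 (0.064). Of the 57 other splicing genes, 7 were higher and 11 lower with siRNA3, and 13 were higher and 13 lower with siRNA9. Over all genes, 20.3% were higher and 21.0% lower with siRNA3, and 29.0% and 29.4% with siRNA9. From this list, DDX46 changed by -0.28 and -0.31.

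SARNP and DDX39A were also compared without their shared controls, each as the mean of 4 libraries. There, 10 members were higher with SARNP knockdown, where 26.1% of all genes were, and 11 lower, where 27.5% were. CCNL2 was higher with SARNP knockdown by 0.36 ± 0.04 (SE, limma adjusted p = 3.4e-10), and lower values were found for SRRM2, at -0.17 ± 0.03 (SE, limma adjusted p = 2.7e-06), and SRSF5, at -0.21 ± 0.03 (SE, limma adjusted p = 2.1e-06). For SRSF5 the siRNAs of SARNP lay apart: it had 1904 and 1907 with SARNP siRNA3 and 1503 and 1488 with SARNP siRNA9, against 2061 and 2060.4 with DDX39A siRNA1 and 1842 and 1837 with DDX39A siRNA4.

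With FIBP siRNA6, 11 of 46 members were called, 6 higher and 5 lower, a share near that of all genes: 22.6% of 11768 genes were called, 1269 higher and 1391 lower. With siRNA7, 6 were higher, where 16.6% were, and 4 lower, where 17.5% were. The medians were 0.01 and 0.00. With siRNA6, the count higher was 3 without control library 2 or siRNA6 library 1. The count lower was 2 by DESeq2, 2 without control library 1 or siRNA6 library 1, 3 without control library 2 and 1 without siRNA6 library 2. With siRNA7, the count higher was 3 by DESeq2 and 3 without siRNA7 library 2. BCLAF1 was higher with both siRNAs, at 4363 and 4249 with siRNA6 and 4306 and 4287 with siRNA7, against 3841 and 3898 in controls. All 4 libraries were above both controls, by 0.15 ± 0.04 (SE, limma adjusted p = 0.0023) and 0.15 ± 0.04 (SE, limma adjusted p = 0.0017).

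Over the 10 siRNAs, the largest change of any member was in SRPK2 with FIBP siRNA7. SRPK2 had 1477 and 1509 with siRNA6 and 715 and 625 with siRNA7, against 1326 and 1395 in controls. It fell to 49.3% of control with siRNA7 (-1.02 ± 0.06 SE, limma adjusted p = 2.2e-19) and did not pass with siRNA6 (0.13 ± 0.06 SE, limma adjusted p = 0.079). RSRC1 had 485 and 484 with siRNA6 and 285 and 248 with siRNA7, against 408 and 463 in controls, so the siRNA7 libraries lay below, and the siRNA6 libraries above, both controls. The siRNA7 minus siRNA6 difference was -0.86 ± 0.09 (SE, limma adjusted p = 3.7e-11). SRRM1 moved the other way, with 710.5 and 676 with siRNA6 and 930.1 and 1063 with siRNA7, against 719 and 672 in controls, and a difference of 0.52 ± 0.07 (SE, limma adjusted p = 1.7e-08). Directly compared, the siRNAs differed in 12 members, where 35.7% of all genes did. Of the 57 other splicing genes, 5 were higher and 5 lower with siRNA6, and 12 were higher and 6 lower with siRNA7. With siRNA6, 22.6% of all genes were called in either direction. With siRNA7, 16.6% were higher and 17.5% lower. From this list, CCNK, the cyclin of CDK12 and CDK13, changed by 0.34 and 0.22 and RSRP1 by -0.26 and -0.34.

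**Figure D5:**
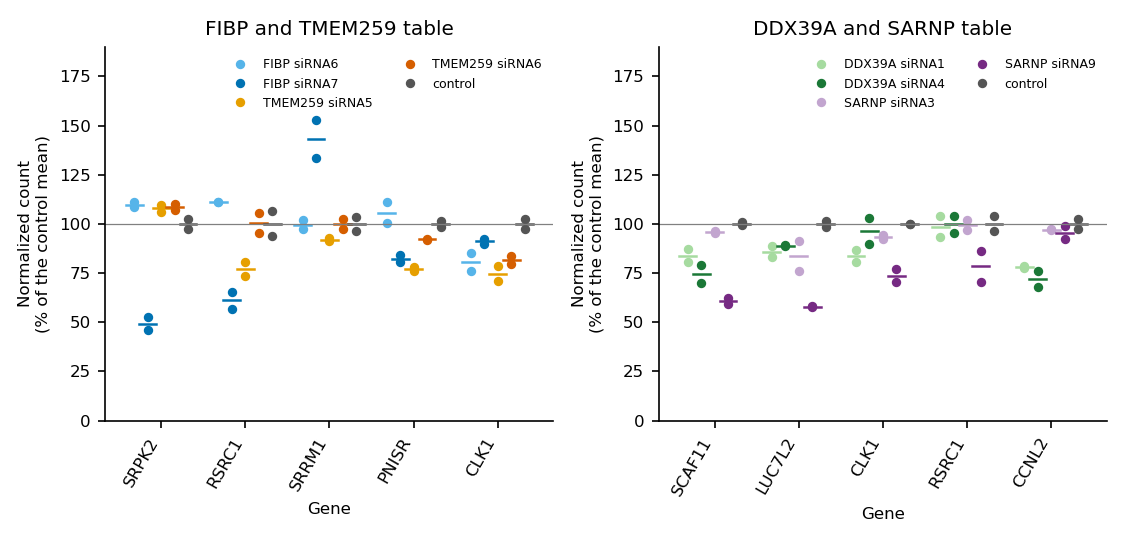
Libraries as a percentage of the control mean of their table (points, libraries; bars, means of 2) for members with large changes with 1 siRNA, chosen after their values were seen. SRPK2 and RSRC1 are lowest with FIBP siRNA7 at left, and SCAF11 and LUC7L2 are lowest with SARNP siRNA9 at right.

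TMEM259 siRNAs differed from each other in many members. With siRNA5, 18 members were called, where 22.8% of all genes were. Of these, 1 was higher, beside 1274 of 11768 genes, and 17 were lower, where 12.0% of all genes were. With siRNA6, 10 were higher, where 9.36% of all genes were, and 2 lower, where 10.0% were. The medians were -0.10 and 0.07. Without the controls, 22 members were higher with siRNA6 than with siRNA5, where 16.5% of all genes were, and 0 were lower, where 15.6% were; by edgeR the count that differed was 22 and by DESeq2 19. The residual level of TMEM259 itself was higher with siRNA6 (48.3% of control) than with siRNA5 (30.3%); its part in these differences was not tested. With siRNA5 the count lower was 11 by DESeq2, 11 without either control library and 10 without siRNA5 library 2, and the count higher was 0 by DESeq2 and without control library 1 or either siRNA5 library. With siRNA6 the count higher was 6 by DESeq2 and 5 without control library 1 or siRNA6 library 1, and the count lower was 0 without control library 1 and 1 without either siRNA6 library.

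With siRNA5, 7 of 11 SR proteins were called lower, where 12.0% of all genes were, and none higher. By DESeq2 4 were lower, and under quantile normalization 5. Their summed counts were 91.5% of control with siRNA5 and 103% with siRNA6. SRSF9 had 2113 and 2209 with siRNA5 and 2692 and 2649 with siRNA6, against 2622 and 2607 in controls, and was lower with siRNA5 (-0.28 ± 0.04 SE, limma adjusted p = 5.3e-06). SRSF7, an SR protein with a zinc knuckle, had 3374 and 3095 and 3918 and 3861 with these siRNAs, against 3723 and 3598 in controls. For both genes the siRNA5 libraries were below, and the siRNA6 libraries above, both controls; the siRNA5 call of SRSF7 (-0.18) was lost without siRNA5 library 2 (adjusted p = 0.0931). The siRNA6 minus siRNA5 differences of all 11 SR proteins lay above 0, from 0.09 to 0.31. Of these, 6 were called, where 16.5% of all genes were called higher.

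CLK3 had 389 and 421 with siRNA5 and 587 and 583 with siRNA6, against 449 and 507 in controls. It was lower with siRNA5 (-0.24 ± 0.08 SE, limma adjusted p = 0.030) and higher with siRNA6 (0.29 ± 0.08 SE, limma adjusted p = 0.0079). DESeq2 called neither (adjusted p = 0.144 and 0.0564); the siRNA5 call was lost without control library 2 (0.342) or siRNA5 library 1 (0.236), and the siRNA6 call without control library 1 (0.193) or siRNA6 library 1 (0.0657). U2AF2, the large subunit of the factor that binds the polypyrimidine tract, had 3176 and 3375 with siRNA5 and 4329 and 4122 with siRNA6, against 3709.6 and 3784 in controls. It was lower with siRNA5 (-0.19) and higher with siRNA6 (0.17); the siRNA6 call was lost without siRNA6 library 1 (0.0709). SRSF11 had 2405 and 2386 with siRNA5 and 2848 and 2857 with siRNA6, against 2574 and 2674 in controls, and was called lower with siRNA5 (-0.13) and higher with siRNA6 (0.12). Its siRNA6 call was lost under quantile normalization (0.11, adjusted p = 0.0871), by DESeq2 (0.103), without control library 1 (0.305) or 2 (0.0699) and without siRNA6 library 1 (0.158) or 2 (0.146). Its siRNA5 call was lost by DESeq2 (0.0847), without control library 2 (0.207) and without siRNA5 library 1 (0.0765) or 2 (0.11).

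Some members moved one way with both TMEM259 siRNAs. CLK1 had 571 and 514 with siRNA5 and 578 and 608 with siRNA6, against 744 and 707 in controls, and was lower with both, at -0.42 ± 0.07 (SE, limma adjusted p = 1.1e-05) and -0.29 ± 0.07 (SE, limma adjusted p = 0.0022). Its siRNA6 call was lost without control library 1 (adjusted p = 0.0545) or siRNA6 library 1 (0.0559). CCNL2 had 1381 and 1499 with siRNA5 and 1498 and 1441 with siRNA6, against 1697 and 1666 in controls, and was lower with both, at -0.22 ± 0.05 (SE, limma adjusted p = 8.7e-04) and -0.19 ± 0.05 (SE, limma adjusted p = 0.0045). The siRNA5 call of CCNL2 was lost without siRNA5 library 1 (adjusted p = 0.0564), and the siRNA6 call without control library 1 (0.0597) or siRNA6 library 2 (0.0666). DYRK1A had 322 and 334 with siRNA5 and 362 and 349 with siRNA6, against 262 and 285 in controls, and was higher by 0.26 ± 0.09 (SE, limma adjusted p = 0.030) and 0.38 ± 0.09 (SE, limma adjusted p = 0.0019); the siRNA5 call was lost by DESeq2 (adjusted p = 0.162), without control library 1 (0.253) and without siRNA5 library 1 (0.076) or library 2 (0.159), and the siRNA6 call without control library 1 (0.055). Of the 57 other splicing genes, 1 was higher and 14 lower with siRNA5, and 8 were higher and 4 lower with siRNA6. With siRNA5, 22.8% of all genes were called in either direction and 12.0% were lower. With siRNA6, 9.36% were higher and 10.0% lower. From this list, HIPK2, a kinase not known mainly for splicing, changed by -0.53 and -0.32.

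TMEM259 and FIBP were compared without their shared controls, as means of 4 libraries each. There, 3 members were higher and 11 lower with TMEM259 knockdown, where 37.1% of all genes differed in either direction; the count of 14 was 7 by DESeq2, and 9 without FIBP siRNA6 library 1 or TMEM259 siRNA6 library 1. SRPK2 was higher with TMEM259 knockdown by 0.56 ± 0.04 (SE, limma adjusted p = 1.6e-15) and SRRM1 was lower, at -0.32 ± 0.05 (SE, limma adjusted p = 4.9e-07). Both differences rest on FIBP siRNA7, which enters the FIBP mean with siRNA6. SRPK2 had 1495 and 1442 with TMEM259 siRNA5 and 1458 and 1501 with TMEM259 siRNA6, against 1477 and 1509 with FIBP siRNA6 and 715 and 625 with FIBP siRNA7. SRRM1 had 644 and 634 and 713 and 677 with the TMEM259 siRNAs in the same order, against 710.5 and 676 with FIBP siRNA6 and 930.1 and 1063 with FIBP siRNA7.

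CCNL2 and DYRK1A, chosen after their values were seen, can be followed across all siRNAs, where siRNAs of 1 table share controls. The log2 values of CCNL2 were -0.13 and -0.17 with the SART1 siRNAs, -0.36 and -0.47 with the DDX39A siRNAs, -0.04 and -0.07 with the SARNP siRNAs, -0.14 and -0.09 with the FIBP siRNAs and -0.22 and -0.19 with the TMEM259 siRNAs; both SARNP values and the FIBP siRNA7 value did not pass. The FIBP siRNA6 call of CCNL2 was lost by DESeq2 (adjusted p = 0.132) and without control library 1 (0.205) or 2 (0.102) or siRNA6 library 1 (0.138) or 2 (0.119). For DYRK1A the values in the same order were 0.40 and 0.63, 0.46 and 0.04, 0.14 and 0.24, 0.07 and 0.31, and 0.26 and 0.38, of which DDX39A siRNA4, SARNP siRNA3 and FIBP siRNA6 did not pass. The SARNP siRNA9 call of DYRK1A was lost without control library 1 (adjusted p = 0.0929) or siRNA9 library 1 (0.0978), and the FIBP siRNA7 call by DESeq2 (0.065) and without control library 1 (0.103) or siRNA7 library 2 (0.174). Every member was called with at least 1 of the 10 siRNAs. Among all genes tested, from 2282 of 11768 (TMEM259 siRNA6) to 7442 of 11823 (SART1 siRNA6) were called with a single siRNA. The share of all genes called at least once was not worked out, so no trait of the members is read from this. PRPF4B and CLK4 were called with both SART1 siRNAs and with none of the other 8; the difference from those was not tested, since the tables were normalized apart.

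Some values carry a limit from counting. SRSF1 shares 62.2% of its exon bases with other annotated genes (GENCODE 29), SRSF9 41.2% and SRSF2 34.7%, in the last 2 cases mainly with genes on the opposite strand. The libraries were directional, but the strand setting of the counting is not given in the sources used here. Processed copies carrying the gene's name are annotated for 9 members, SRSF10, SRRM1, BCLAF1, CLK3 and CCNL2 among them. Reads that did not align uniquely stand as an entry of their own, outside the genes, in the SART1 table and in the FIBP and TMEM259 table (28.4% to 31.7% of gene reads); for the DDX39A and SARNP table their treatment is not given in the sources used here.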

How the data were processed

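Deposited by the authors were normalized counts for each gene symbol, a signal in which each library's gene counts had been scaled by a single factor: in all 26 libraries the values came out as whole multiples of that library's step, to within 0.0001 of a read. The submitters' processing notes name hg19, STAR, Picard, HTSeq and DESeq2; versions, annotation and strand setting are not given in the sources used here. Entries that name no gene were left out (unassigned reads, 6.25% to 10.1% of gene reads; ambiguous reads, 1.70% to 2.04%; not uniquely aligned, 28.4% to 31.7%, in 2 of the tables). Libraries of a group differed by more than counting error (chi-square over degrees of freedom, 1.52 to 2.93).

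Genes with a mean of at least 10 in their table were tested (11823, 11673 and 11768 in the SART1, DDX39A and SARNP, and FIBP and TMEM259 tables). log2(value + 1) was fitted per table with limma 3.58.1 in R 4.3.3 (a mean per group, eBayes with trend, residual degrees of freedom of 3, 5 and 5), with Benjamini-Hochberg adjustment over all genes, two-sided. The tables were normalized apart and never merged. Alternatives were a pseudocount of 5, no filter, a filter at a mean of 50, edgeR 4.0.16 and DESeq2 1.42.0 on recovered reads, quantile normalization, only the compared groups, a replicate block, and leaving out each library; scripts were tested on simulated data. The members, roles, lists and tests were chosen with earlier results of these data known. Library values are given in full for up to 3 members per target, role and direction, ranked by the smaller change. Both siRNAs had called these, and their 4 knockdown libraries lay beyond both controls, so their lack of overlap follows from the choice. Members with opposite calls are also given in full. The other splicing genes named were picked from those that met the same rule on calls and overlap. Other members named were chosen after their values were seen.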

Additional observations from a re-analysis of the deposited data

Results flagged for a closer look

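For 11 pairs of a member and a target, the siRNAs of that target called the member in opposite directions. The share of all genes with such opposite calls was not worked out. The direct siRNA comparison (limma, n = 2 libraries each) also passed for each pair. Opposite calls against the same controls make a direct difference near certain, so it is no separate test of them. With SART1, the SRPK2 change with siRNA6 minus that with siRNA4 was 0.62 ± 0.04 (SE, limma adjusted p = 2.7e-11). With DDX39A, siRNA4 minus siRNA1 was -0.55 ± 0.05 (SE, limma adjusted p = 7.0e-12) for PNN, -0.49 ± 0.07 (SE, limma adjusted p = 3.2e-07) for LUC7L, -0.32 ± 0.05 (SE, limma adjusted p = 2.5e-07) for THRAP3, -0.24 ± 0.04 (SE, limma adjusted p = 8.4e-06) for SRSF3 and 0.54 ± 0.09 (SE, limma adjusted p = 4.0e-06) for SRSF8. With SARNP, siRNA9 minus siRNA3 was -0.48 ± 0.07 (SE, limma adjusted p = 3.4e-07) for LUC7L and 0.31 ± 0.05 (SE, limma adjusted p = 5.1e-06) for SCAF1. With TMEM259, siRNA6 minus siRNA5 was 0.53 ± 0.08 (SE, limma adjusted p = 1.5e-06) for CLK3, 0.37 ± 0.04 (SE, limma adjusted p = 1.0e-09) for U2AF2 and 0.25 ± 0.04 (SE, limma adjusted p = 1.1e-05) for SRSF11. FIBP gave 0 such members. All 11 direct differences kept their call under every alternative run. The opposite calls against controls were less firm: those of SRPK2 and PNN held under every alternative, and each of the others lost a call under at least 1 of them, SRSF11 also under quantile normalization.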

How the results depend on the processing

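The 27 counts of called members have no sign and could only stay or move. None of the 131 named changes reversed under any alternative. Outside these, quantile normalization turned the sign of 6 called values, all near 0 and all in the SART1 table. The other filters, a pseudocount of 5, quantile normalization, edgeR and a fit of the compared groups alone left every count within 1.5 times. By DESeq2 the counts of called members were 2 lower with SART1 siRNA4, 15 between the SART1 siRNAs, 2 lower with DDX39A siRNA1, 2 lower with FIBP siRNA6, 3 higher with FIBP siRNA7, 0 higher and 11 lower with TMEM259 siRNA5, 6 higher with TMEM259 siRNA6 and 7 between TMEM259 and FIBP. Same-numbered libraries did not deviate together (correlations of -0.12 to 0.09, -0.11 to 0.08 and -0.01 to 0.07 in the DDX39A and SARNP, FIBP and TMEM259, and SART1 tables); with the replicate block, 3 members were lower with FIBP siRNA6 instead of 5, the other 26 counts stayed within 1.5 times, and the calls of SRSF11 with TMEM259 siRNA6 (adjusted p = 0.0584) and CCNL2 with FIBP siRNA6 (0.0522) were lost.

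Leaving out 1 library at a time gave these ranges: 28 to 31 higher and 1 to 3 lower with SART1 siRNA4, 32 to 35 and 2 to 3 with siRNA6, 14 to 21 between them; 9 to 10 and 3 to 5 with DDX39A siRNA1, 2 to 4 and 15 to 18 with siRNA4, 22 to 25 between them; 2 to 3 and 3 to 8 with SARNP siRNA3, 6 to 10 and 9 to 10 with siRNA9, 20 to 25 between them, 16 to 23 between SARNP and DDX39A; 3 to 6 and 1 to 3 with FIBP siRNA6, 3 to 6 and 3 to 4 with siRNA7, 8 to 14 between them; 0 to 1 and 10 to 12 with TMEM259 siRNA5, 5 to 7 and 0 to 2 with siRNA6, 19 to 21 between them, 9 to 11 between TMEM259 and FIBP. A group left with 1 library was assumed to vary like the others. Over the 131 named changes, 470 such refits kept the call and 74 lost it, as did 18 by DESeq2 and 4 under quantile normalization. Many of these changes were named because both siRNAs called them. Outside them, quantile normalization lost more calls of members, many in the SART1 table. With SART1 siRNA6, for example, SRSF1 went from 0.21 to 0.04 and U2AF2 from 0.20 to 0.04. Depth limits SRSF10, SF1, LUC7L2 and CLK4 most, with the fewest reads and the largest errors.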

Other observations

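The knocked-down genes also moved in tables where they were not the target. With SART1 knockdown, SARNP mRNA was 168% of control with siRNA4 and 181% with siRNA6 (log2 changes of 0.75 and 0.86 ± 0.04 SE each, limma adjusted p = 1.1e-13 and 8.9e-15). FIBP mRNA was 75.2% and 72.4% of control with the same siRNAs (-0.41 and -0.47 ± 0.07, limma adjusted p = 1.4e-05 and 2.1e-06). These are values of 2 libraries per group against the same 2 controls.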
